A study of Mus musculus with 6 samples.

Results

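Colon epithelium of C57BL/6 mice given azoxymethane and dextran sulfate sodium (AOM/DSS) together with curcumin was compared with that of mice given AOM/DSS alone. The comparison holds 4 of the 6 samples of the series, 2 with AOM/DSS and 2 with AOM/DSS plus curcumin, chosen by their sample names. All mice were 18 weeks old. The 2 untreated control samples are quoted as a reference level only. Azoxymethane is a carcinogen that reaches the colon, dextran sulfate sodium is a polymer that injures the colon lining and inflames it, and curcumin is the yellow polyphenol of turmeric. Both compared groups received AOM/DSS, so they differ by curcumin. The sources used here give no doses or schedules. Per the labels, tumors in the right colon and the whole proximal segment were removed first and the lining of the rest was then scraped off, so the values describe mucosa that remained.

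DNA methylation is the addition of a methyl group to cytosine, in mammals mostly where a cytosine stands before a guanine (a CpG). Clusters of CpGs at gene starts, called CpG islands, are mostly unmethylated, while scattered CpGs elsewhere are mostly methylated, and regulatory elements that are in use are often low. Colon tumors and inflamed colon are known for lower methylation at scattered CpGs and higher methylation at some islands.

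Bisulfite treatment turns unmethylated cytosines into bases read as thymine, so each read gives a methylated or unmethylated call at each CpG it covers. A region's level is the percentage of its calls that were methylated, and differences are in percentage points, curcumin minus AOM/DSS. Of 209687 regions in the files, 179922 had a value in all 6 samples and were compared. Calls numbered 30727568 and 28766117 in AOM/DSS and 26924351 and 26069698 with curcumin, so depth differed between the groups in one direction. Its part in the results was not tested beyond the minimum numbers of calls given in the closing section. Mitochondrial DNA, which carries little or no CpG methylation and so serves as a check of conversion, read 0.956 to 1.01% methylated in all 6 samples. Gene loci were placed on build mm9 from general knowledge of gene positions and are approximate. Among the epithelial marker genes with a region at the start site, 5 of 5 (Cdh1, Cdx2, Epcam, Atoh1 and Klf4) were under 10% in control there. This is common at start sites. Of 41 gene loci with such a region, 33 were under 10% in control at the one nearest the start, 2 of 3 stromal genes among them. The leukocyte genes Ptprc and Cd8a were at 76.9% and 90.3% in control at their start sites. Whether replicates are separate mice is not stated in the labels, and p-values therefore measure no more than the spread between these samples.

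Regions that were methylated in control stood higher with curcumin than with AOM/DSS alone, and regions that were low in control stood lower. Classes were set by the mean level of the control samples, which take no part in the difference. This cut favours high control values in the high classes and low ones in the low classes. The distance of the other samples from control therefore follows in part from the choice. In the 34766 regions at 70 to 90% in control, AOM/DSS stood at 78.5% and 78.4%, curcumin at 80.6% and 80.3%, and control at 81.5% and 81.05%. Curcumin thus lay above AOM/DSS in both samples and below control in both. The difference was 1.98 points. In the 65882 regions under 10% in control, AOM/DSS stood at 3.16% and 3.74%, curcumin at 2.94% and 2.96%, and control at 2.75% and 2.83%. Here both curcumin samples lay below both AOM/DSS samples, by 0.503 points between the group means. Without AOM/DSS replicate 1 that difference was -0.211 points and without AOM/DSS replicate 0 it was -0.794 points.

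The classes between them changed sign once. The difference was -0.605 points at 10 to 30%, 0.41 at 30 to 50%, 1.52 at 50 to 70% and 1.17 at 90% and above. The 2 groups did not overlap in any of the 6 classes. At 10 to 30% the value was -0.294 points without AOM/DSS replicate 1 and -0.915 without replicate 0, and at 30 to 50% it was 0.225 points without AOM/DSS replicate 0 and 0.227 without curcumin replicate 0. With 2 samples against 2, the smallest two-sided p of the exact permutation test on sample means is 0.333, and each class gave that value.

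**Figure D1:**
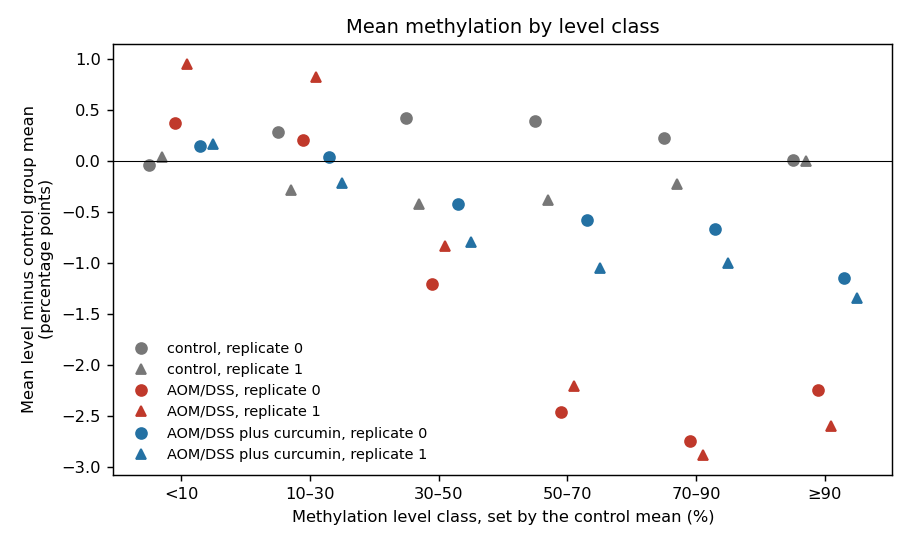
Mean methylation level of each of the 6 samples minus the mean of the control group (vertical axis, percentage points), in 6 classes of regions set by the control level (horizontal axis, %). Both curcumin samples lie between the AOM/DSS samples and the control mean in the 3 classes from 50% upward, and below both AOM/DSS samples in the 2 classes under 30%. The classes were cut on the control values, so the distance from control follows in part from the choice.

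Single regions followed the same split. Over all regions, the curcumin samples were both above the AOM/DSS pair in 34009 regions (18.9%) and both below it in 28806 (16%). At 70 to 90% in control the shares were 26.7% above and 10.2% below, and under 10% they were 12.5% above and 20.5% below. When 10 points or more were required together with an unadjusted p under 0.05 from edgeR's quasi-likelihood test, 2324 regions (1.29%) were higher with curcumin and 1271 (0.706%) lower. With no minimum difference the balance turned, with 4598 (2.56%) higher and 4841 (2.69%) lower. The class at 70 to 90% held 1017 of the higher and 188 of the lower regions, while the class at 10 to 30% held 240 of the higher and 422 of the lower. Adjusted over all regions, 0 (0%) passed edgeR's test at 0.05 and 10 points, with 9439 (5.25%) at an unadjusted p under 0.05. limma on log2 ratios called 0 and a quasi-binomial model 2. All single regions below are therefore described by their values and did not pass.

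Within a level class, the difference varied with the number of CpGs in a region. Among regions at 70 to 90% in control, the difference was 2.26 points with 3 to 4 CpGs, 1.87 with 5 to 7, 1.75 with 8 to 14 and 1.22 with 15 to 29. The AOM/DSS and curcumin samples did not overlap in any of these. The 40 regions of that level with 30 or more CpGs differed by 0.355 points with overlap between the groups. Among regions under 10% in control, the difference shrank from -1.14 points with 3 to 4 CpGs to -0.0943 points with 30 or more, again without overlap. In the former, AOM/DSS stood at 4.45% and 5.90% and curcumin at 3.99% and 4.08%. That difference was -0.417 points without AOM/DSS replicate 1 and -1.87 points without AOM/DSS replicate 0. In the latter, which are core CpG islands, AOM/DSS stood at 1.84% in both samples and curcumin at 1.76% and 1.74%. Dividing regions by CpG number and level together was chosen after values had been seen. Deeper coverage goes with more CpGs: regions at 70 to 90% with 3 to 4 CpGs had a median of 62 calls in AOM/DSS and 55.5 with curcumin, and those with 15 to 29 CpGs had 220.0 and 192. The part of depth in this order was not tested directly. With at least 100 calls in each sample the differences were 2.09 and 1.14 points.

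Region types defined by position also differed by level, and their division by level was chosen after values had been seen. Shores, within 2000 bases of a region with 30 or more CpGs, differed by 0.015 points with overlap. Their subset at 70% and above in control stood at 82.5% and 82.2% in AOM/DSS and 84.1% and 83.6% with curcumin, a difference of 1.52 points. Isolated regions, with no other region within 10000 bases, stood at 57.4% and 58.04% in AOM/DSS and 59.1% and 58.9% with curcumin, 1.25 points apart. At 70% and above they differed by 1.93 points. Boundary regions have a neighbour within 1000 bases that differs by over 50 points in control. Their methylated side, at 70% and above in control, differed by 1.44 points and their low side, under 30%, by -0.641 points. The 2 sides were thus farther apart with curcumin than with AOM/DSS alone. This is not particular to boundaries: all regions differed by 1.98 points at 70 to 90%, 1.17 at 90% and above and -0.527 under 30%. Shores, isolated regions and boundaries at 70% and above all lay between the first 2 of these values. The low side differed by -0.31 points without AOM/DSS replicate 1 and by -0.971 points without AOM/DSS replicate 0. Methylated CpG-dense regions, in the densest of 4 equal classes and at 70% and above in control, stood at 86.8% in both AOM/DSS samples and at 88.2% and 87.8% with curcumin. Sparse regions at 10 to 50% in control, the class that holds many distal regulatory elements, stood at 28.5% and 28.9% in AOM/DSS and at 28.9% and 28.6% with curcumin, with overlap.

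**Figure D2:**
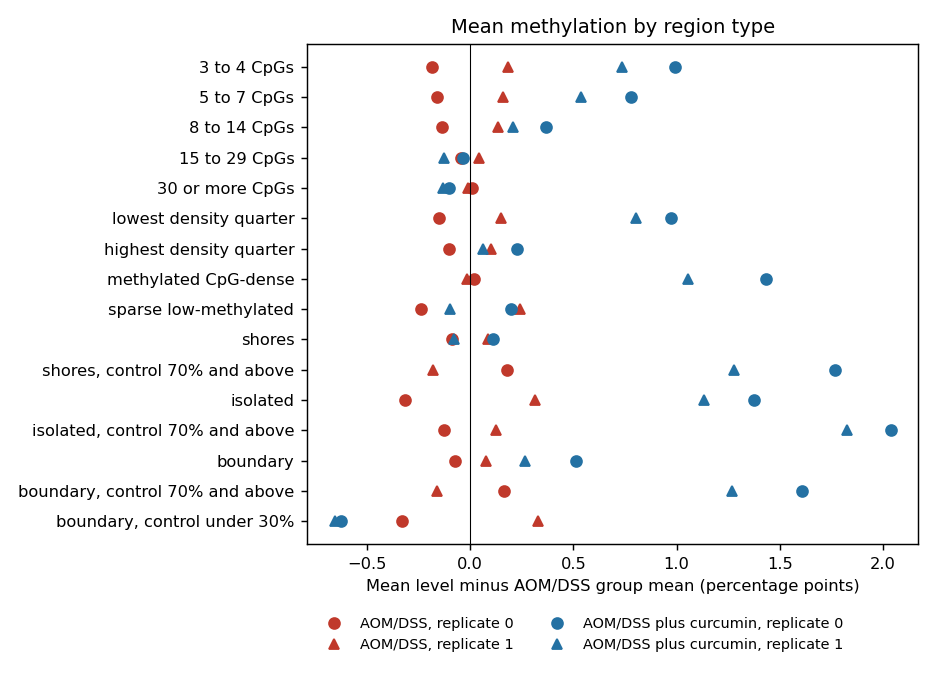
Mean level of each AOM/DSS and curcumin sample minus the mean of the AOM/DSS group (horizontal axis, percentage points), for 16 region types by CpG number, density, position and control level. The curcumin points stand farthest to the right for isolated regions at 70% and above in control, at 1.93 points on average, and lie among the AOM/DSS points for shores and sparse low-methylated regions.

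The difference was spread along the chromosomes. Of 1788 windows of 1 Mb with at least 20 compared regions, 755 (42.2%) had both curcumin samples above both AOM/DSS samples and 108 (6.04%) had both below. The median window differed by 0.497 points, and the windows from the 5th to the 95th percentile spanned -0.671 to 1.76 points. Of 4 classes of windows by control level, the lowest had a median of 0.257 points and the highest 0.722 points.

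Among 4 marker genes of leukocytes, Ptprc stood higher with curcumin in 10 of its 11 regions and Cd8a in its 1 region. Cd4 and Itgam had small negative mean differences. Over all regions, 93387 of 179922 had a higher mean with curcumin, and at 50% and above in control 48261 of 77541 did. The 19 regions of the 4 leukocyte genes described averaged 63.2% and 61.2% in AOM/DSS, 69.1% and 65.5% with curcumin and 68.6% and 64.7% in control. Both values with curcumin exceeded those of AOM/DSS and were within or above the range of the controls. The mean difference was 5.11 points, or 3.32 points without curcumin replicate 0, and the median was 3.85 points, against 0.111 points over all regions. The groups did not overlap in 9 of the 19 regions (47.4%), all 9 higher with curcumin, against 18.9% higher and 16% lower over all regions. Of these 9, 7 lay in Ptprc. At an unadjusted p under 0.05 with at least 10 points and no overlap, 3 of the 19 were higher, where all regions gave 1.27%. Of the 19 leukocyte regions, 15 were at 50% or more in control, where the median difference was 2.79 points against 1.41 points over all regions of that level. There, 7 of the 15 (46.7%) were higher without overlap, against 25.4% over all regions of that level. Other lists differed by more at that level, with a median of 3.62 points over 36 regions of inflammatory genes and of 6.48 points over 8 regions of stromal genes. In scraped mucosa, a different share of leukocytes and a different level in the same cells cannot be told apart.

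Ptprc, which encodes CD45, a phosphatase on the surface of nearly all white blood cells, held all 3 of those regions. Its start-site region, chr1:140071888-140072025 with 4 CpGs, stood at 64.2% and 52.6% in AOM/DSS, 78.4% and 71.7% with curcumin and 82.1% and 71.6% in control. The difference was 16.7 points at 53 to 84 calls (edgeR unadjusted p = 0.0399, adjusted p = 0.936). The groups did not overlap. The neighbouring region chr1:140071379-140071502 stood at 36.0% and 42.3% in AOM/DSS and 54.7% and 60.6% with curcumin (edgeR adjusted p = 0.928). A region farther along the gene, chr1:140031027-140031191, stood at 69.6% and 62.9% against 87.2% and 74.6%. Of the 11 Ptprc regions, 10 had a higher mean with curcumin and 7 (63.6%) were higher without overlap, against 18.9% over all regions. Among the other leukocyte genes, the start-site region of Cd8a, the T cell coreceptor, stood at 82.4% and 78.6% in AOM/DSS and 90.3% and 85.8% with curcumin (edgeR unadjusted p = 0.0644). Cd4 differed by a median of -0.447 points over 4 regions and the myeloid integrin gene Itgam by -1.498 points over 3.

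The promoter sequences of Ptprc and Tnf are shown because their start-site regions, recognised by the number and spacing of their CpGs, differ in CpG content and in level. They are the 250 bases before each start on the minus strand, from RefSeq (GRCm38.p6), with CpGs in capitals. Of 32851 RefSeq promoters of 300 bases, 94.6% hold at least 1 CG and the median is 7.
Ptprc: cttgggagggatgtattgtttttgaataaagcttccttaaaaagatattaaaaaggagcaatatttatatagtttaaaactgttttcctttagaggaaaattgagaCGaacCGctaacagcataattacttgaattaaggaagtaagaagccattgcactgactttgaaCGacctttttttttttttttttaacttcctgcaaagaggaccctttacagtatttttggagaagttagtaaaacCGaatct
Tnf: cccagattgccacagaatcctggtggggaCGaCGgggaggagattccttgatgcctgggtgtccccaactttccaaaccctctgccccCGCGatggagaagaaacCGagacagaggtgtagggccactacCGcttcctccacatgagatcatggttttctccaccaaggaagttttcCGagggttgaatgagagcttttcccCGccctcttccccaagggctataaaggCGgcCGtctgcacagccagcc
The 4 CpGs of the Ptprc stretch are those of the region described above, and the Tnf stretch holds 10 of the 11 CpGs of its start-site region.

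Stromal genes split by level. The 21 regions of the collagen gene Col1a1, the smooth muscle actin gene Acta2 and the intermediate filament gene Vim averaged 30.1% and 32.4% in AOM/DSS and 32.5% and 33.7% with curcumin. Leaving out AOM/DSS replicate 0 changed the mean difference from 1.78 to 0.625 points, leaving out AOM/DSS replicate 1 gave 2.93 and leaving out curcumin replicate 1 gave 1.18. The median was 0.508 points, and 2 regions (9.52%) were higher and 1 (4.76%) lower without overlap, against 18.9% and 16% over all regions. In the 8 regions at 50% and above in control the median was 6.48 points. Of these 8, 7 had a higher mean with curcumin, where all regions of that level gave 48261 of 77541. The groups did not overlap in 1 of the 8 (12.5%), a higher one, against 25.4% higher over all regions of that level. In the 11 regions under 30% the median was -0.285 points. No stromal region met the unadjusted threshold with 10 points, against background shares of 1.27% higher and 0.688% lower.

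Genes of the intestinal epithelium stood slightly lower with curcumin on average, and single genes differed in both directions. Their 97 regions averaged 20.6% and 21.9% in AOM/DSS, 20.6% and 19.8% with curcumin and 18.9% and 21.0% in control. The curcumin samples lay just below the AOM/DSS samples. The median difference was -0.523 points, with 30 regions (30.9%) lower without overlap and 9 (9.28%) higher, against 16% and 18.9% over all regions. Most of these regions were low: for the 74 that stood under 30% in control, the median difference was -0.582 points, against -0.252 points over all regions of that level. The 12 at 50% and above in control had a median of -1.44 points, against 1.41 points over all regions of that level. Of the 12, 4 (33.3%) were lower and 1 (8.33%) higher without overlap, against 11.03% and 25.4%. Averaged over the 12, the 2 groups overlapped. The mean difference over the list, -1.06 points, was -0.412 points without AOM/DSS replicate 1, -1.72 without AOM/DSS replicate 0 and -0.699 without curcumin replicate 1. At their start sites the 5 epithelial genes with a region there differed by -0.625 to 0.804 points, and the larger differences of the list lay elsewhere in the gene spans or within 2000 bases of them.

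Hnf4a, a nuclear receptor that drives enterocyte genes, had 10 of 19 regions (52.6%) lower without overlap and 1 (5.26%) higher. Over all regions these shares were 16% and 18.9%. The region chr2:163365410-163365538 stood at 52.5% and 62.9% in AOM/DSS, 37.9% and 45.5% with curcumin and 40.7% and 34.3% in control, a difference of -16.0 points (edgeR adjusted p = 0.928). Another 3 regions of Hnf4a were adjacent, low in all samples and lower with curcumin without overlap. Of these, chr2:163373064-163373406 stood at 6.996% and 11.8% in AOM/DSS and 0.559% and 3.09% with curcumin (edgeR unadjusted p = 0.00115). Cdh1, which encodes the adhesion protein E-cadherin, had 11 of 27 regions (40.7%) lower without overlap and 1 (3.70%) higher. Its region chr8:109130753-109130948 stood at 31.2% and 21.7% in AOM/DSS and 10.5% and 13.2% with curcumin. Beside Klf4, a transcription factor of goblet and surface cells, chr4:55539759-55539832 stood at 28.2% and 30.4% in AOM/DSS, 14.7% and 12.9% with curcumin and 19.8% and 16.8% in control. Other epithelial genes stood higher with curcumin on average. The 17 regions of Cdx2, the homeobox factor of intestinal identity, had a mean difference of 2.87 points and a median of 0.736 points. Of the 17, 4 (23.5%) were higher and 2 (11.8%) lower without overlap, near the shares over all regions. The highest of them, chr5:148120297-148120418, stood at 22.7% and 50% in AOM/DSS, 53.2% and 56.8% with curcumin and 34.6% and 56.9% in control. That difference of 18.7 points was 5.03 points without AOM/DSS replicate 0, and its unadjusted p in edgeR was 0.0516. The only region of Krt20, a keratin of surface cells, differed by 2.65 points with overlap. Atoh1, the secretory lineage factor, held the 1 epithelial region that was higher at the unadjusted threshold with 10 points, chr6:64681092-64681252, with 17.5% and 21.3% in AOM/DSS and 26.2% and 38.6% with curcumin. None passed after adjustment.

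**Figure D3:**
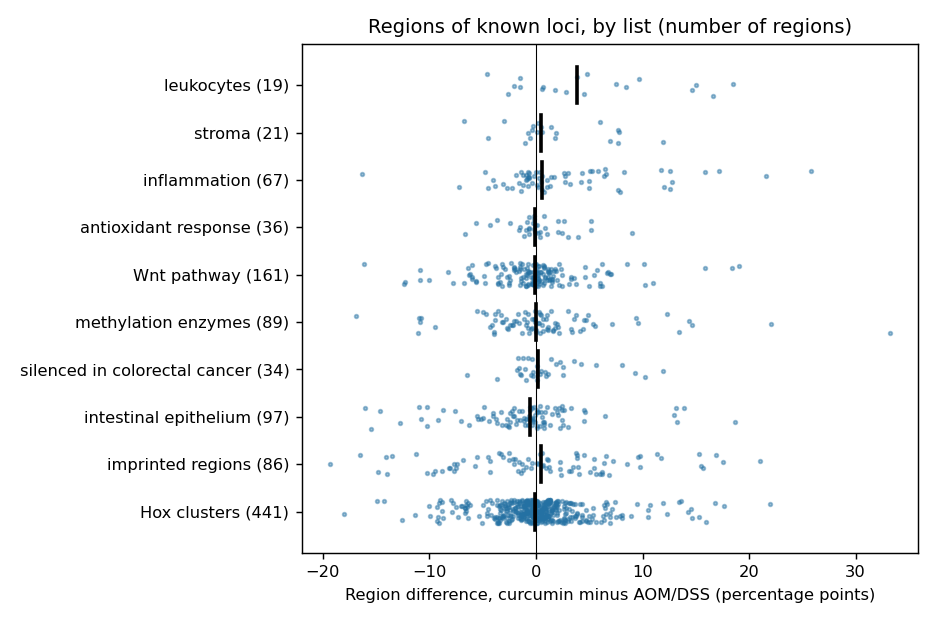
Difference of each region, curcumin minus AOM/DSS (horizontal axis, percentage points; 1 point per region, spread vertically at random), for 10 lists of loci with the number of regions in brackets, and the median of each list as a black bar. The median of the leukocyte list lies at 3.85 points and that of the epithelial list at -0.523 points, with the other medians between -0.113 and 0.617 points.

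Inflammatory genes held a few large differences in both directions. Over 67 regions the median difference was 0.617 points, 18 regions (26.9%) were higher without overlap and 6 (8.96%) lower, against 18.9% and 16% over all regions. At the unadjusted threshold with 10 points and no overlap, 4 were higher and 1 lower, where all regions gave 1.27% and 0.688%. Of the 36 regions at 50% and above in control, 14 were higher without overlap and 1 lower, against 25.4% and 11.03% over all regions of that level. Tnf, which encodes tumor necrosis factor, was methylated inside the gene and not at its start. Its start-site region, chr17:35338934-35339172, stood at 0% in both controls, 1.63% and 1.35% in AOM/DSS and 1.504% and 0% with curcumin. The region chr17:35338139-35338267 stood at 13.5% and 8.33% in AOM/DSS, 44.7% and 28.8% with curcumin and 54.3% and 60% in control. The difference was 25.8 points (edgeR unadjusted p = 0.000222, adjusted p = 0.627). Both curcumin samples thus lay above AOM/DSS and below both controls. The next one, chr17:35338382-35338812 with 16 CpGs and 389 to 516 calls, stood at 28.2% and 14.5% in AOM/DSS and 50.4% and 35.7% with curcumin (edgeR adjusted p = 0.684). Curcumin replicate 0 was the higher one in both regions, as AOM/DSS replicate 0 was in its group.

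Nos2 encodes the inducible nitric oxide synthase of inflamed tissue. Its region chr11:78766136-78766509, with 22 CpGs, stood at 18.3% and 27.0% in AOM/DSS, 7.38% and 5.35% with curcumin and 8.58% and 6.18% in control, at 393 to 443 calls. The difference was -16.3 points, with an unadjusted p of 5.65e-06 and an adjusted p of 0.302 in edgeR, with curcumin replicate 0 between the controls and curcumin replicate 1 below both. In the other 7 Nos2 regions the groups overlapped. Nfkb1, a subunit of NF-kappa-B, had a region at chr3:135349428-135349534 with 84.4% and 77.0% in AOM/DSS and 95.8% and 90.8% with curcumin. Stat3, the mediator of interleukin-6 signals, had one at chr11:100753180-100753286 with 82.1% and 90% against 96.0% and 100%, at only 24 to 47 calls. Of 9 inflammatory start sites with a region, 3 were higher with curcumin without overlap and 0 lower, against 18.9% and 16% over all regions. The 3 were those of the lymphotoxin gene Ltb, Il6 and Stat3, by 6.44, 6.37 and 1.05 points (edgeR unadjusted p = 0.558, 0.167 and 0.19). Il10, S100a8 and S100a9 had no compared region, and the regions near Lta are counted with its neighbours.

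The region with the smallest p lies within the span of Tmem2, which encodes a cell-surface hyaluronidase. At chr19:21892566-21892986, with 12 CpGs, AOM/DSS stood at 40.4% and 33.3%, curcumin at 77.0% and 73.3% and control at 83.3% and 84.7%. The difference was 38.3 points at 225 to 318 calls, with an adjusted p of 0.0579 in edgeR. The regions on its sides behaved differently from each other. The one after it, chr19:21893122-21893376, stood at 76.9% and 68.0% in AOM/DSS and 90.1% and 90.5% with curcumin. The one before it, chr19:21892333-21892451, stood at 76.4% and 81.2% in AOM/DSS, 85.4% and 75.7% with curcumin and 97.9% and 95.2% in control, so the curcumin samples overlapped with AOM/DSS and lay below control. Of the 21 regions of Tmem2, 4 were higher without overlap and 2 lower, against 18.9% and 16% over all regions. The higher count was thus close to its background share and the lower count under it. The start-site region of Tmem2 differed by 1.59 points with overlap.

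**Figure D4:**
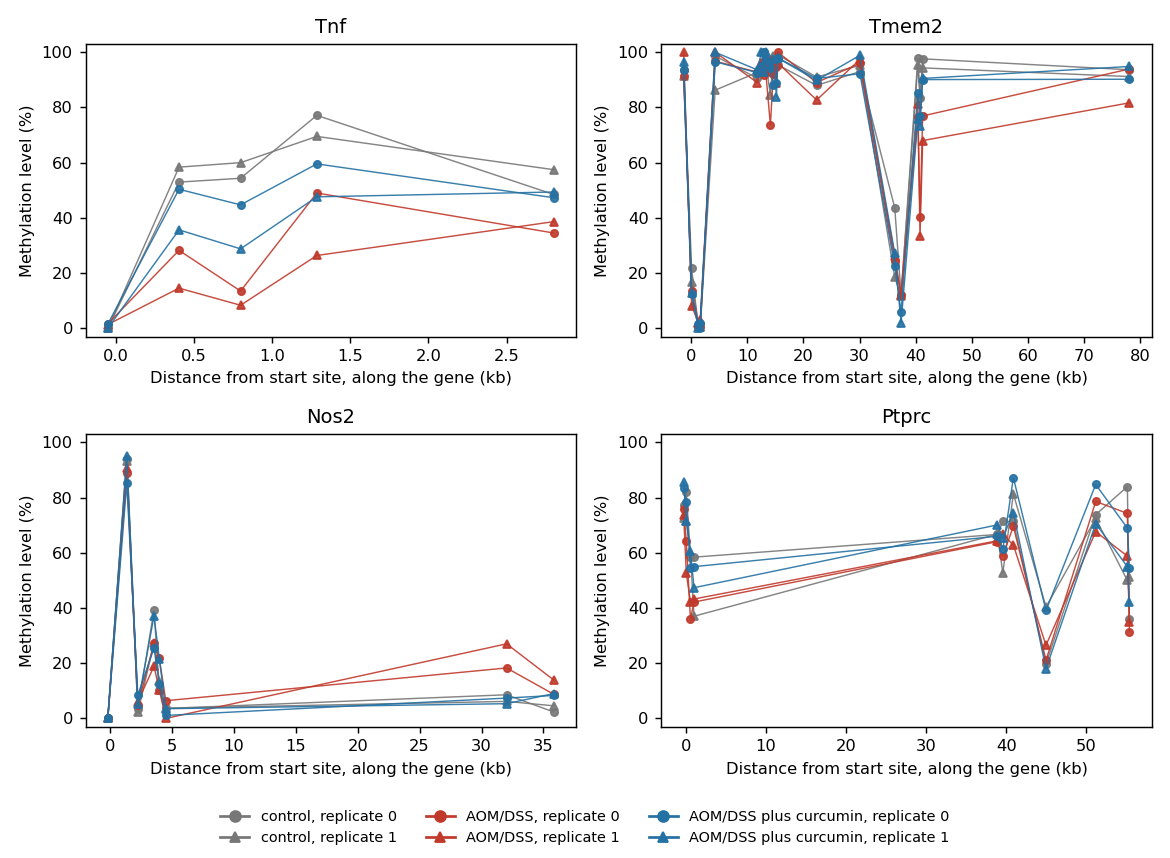
Methylation level of each region (vertical axis, %) against its distance from the approximate start site along the gene (horizontal axis, kb) in all 6 samples, for Tnf, Tmem2, Nos2 and Ptprc, with lines that only join the regions of a sample. The AOM/DSS points lie below the curcumin points at the 2 neighbouring regions of Tnf and the 2 of Tmem2 described, and above them at the Nos2 region described.

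Genes of the Wnt pathway, which maintains the stem cells of the crypt, differed by a median of -0.0671 points over 161 regions, with 21 (13.04%) higher and 33 (20.5%) lower without overlap, against 18.9% and 16% over all regions. Of these, 1 was higher and 3 were lower at the unadjusted threshold with 10 points and no overlap, where all regions gave 1.27% and 0.688%. The higher count fell below its share of 161 regions and the lower count above it, and both are too few to read as a result. Lgr5, the stem cell marker, held 2 of the 3 lower regions. At chr10:115019960-115020075 AOM/DSS stood at 48.8% and 47.5%, curcumin at 34.3% and 29.6% and control at 17.9% and 25.2%, so curcumin lay between the other groups. Within Tcf7l2, which encodes a transcription factor at the end of the pathway, chr19:55940370-55940652 stood at 10.4% and 11.6% in AOM/DSS, 24.2% and 34.6% with curcumin and 31.4% and 26.9% in control (edgeR adjusted p = 0.905). The secreted inhibitors Sfrp1, Sfrp2, Sfrp5, Dkk3 and Wif1, known for methylation at their starts in colorectal cancer, held none of these regions.

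The DNA methyltransferase and Tet dioxygenase genes, whose products add and oxidise the methyl group, differed by a median of 0.00845 points over 89 regions. Of these, 4 were higher and 1 lower at the unadjusted threshold with 10 points and no overlap, where all regions gave 1.27% and 0.688%. Both counts lay above these shares but are few. Within Dnmt3a, chr12:3834478-3834755 stood at 50% and 40% in AOM/DSS, 75.4% and 81.1% with curcumin and 63.6% and 52.8% in control, at 35 to 57 calls. The curcumin samples lay above both other groups. The difference of 33.3 points had an adjusted p of 0.905 in edgeR. In the flank of the approximate span of Dnmt1, the maintenance methyltransferase, and more than 1000 bases from its start, chr9:20766045-20766303 stood at 70.2% and 67.7% in AOM/DSS and 83.5% and 83.6% with curcumin. Tet1 held 1 of the higher regions, and Tet3 held 1 in each direction. The antioxidant response genes Nfe2l2, Keap1, Hmox1 and Nqo1, which curcumin is known to engage in other settings, had a median difference of -0.113 points over 36 regions, and 0 met the unadjusted threshold with 10 points. With background shares of 1.27% and 0.688%, under 1 such region in 36 would be usual, and the 0 says nothing of these genes. Tumor suppressor and repair genes often silenced in colorectal cancer (Cdkn2a, Cdkn2b, Mgmt and Timp3) had a median of 0.24 points over 34 regions and likewise 0 such regions, and their 4 start sites were under 10% in control and differed by -3.65 to 1.09 points.

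Imprinted regions carry methylation on the allele from one parent, so a level near the middle is usual, and 12 of the 15 loci with a region had a control median of 25 to 60%. Their 86 regions differed by a median of 0.452 points, with 13 (15.1%) higher and 11 (12.8%) lower without overlap, both shares below the 18.9% and 16% over all regions. At the unadjusted threshold with 10 points and no overlap, 4 of the 86 were higher and 1 lower, where all regions gave 1.27% and 0.688%. Both counts lay above these shares but are few. The 4 lay in H19, Kcnq1ot1, Plagl1 and Meg3 and the 1 in Grb10. At Kcnq1ot1, whose control median lay outside 25 to 60%, chr7:150481726-150482098 with 20 CpGs stood at 68.5% and 57.5% in AOM/DSS. It stood at 85.7% and 82.4% with curcumin and 79.6% and 83.0% in control (edgeR unadjusted p = 0.000275, adjusted p = 0.627). At Plagl1, chr10:12810994-12811406 with 21 CpGs stood at 28.7% and 36.9% in AOM/DSS and 44.8% and 56.0% with curcumin, above both controls at 31.5% and 39.1%. The 2 regions of Grb10 differed in opposite directions. At chr11:11925689-11925946 AOM/DSS stood at 40.8% and 60.7% and curcumin at 25% and 37.8%, while the controls themselves were apart at 44.9% and 22.6%. At chr11:11926084-11926286 AOM/DSS stood at 32.3% and 21.6% and curcumin at 54.9% and 30%, a difference of 15.5 points with overlap that was 3.06 points without curcumin replicate 0. The 4 Hox clusters, long stretches of developmental genes dense in CpGs, differed by a median of -0.0802 points over 441 regions. Of these, 4 were higher and 2 lower at the unadjusted threshold with 10 points and no overlap, where all regions gave 1.27% and 0.688%. The clearest by CpG number was chr11:96164392-96164770 in Hoxb, with 26 CpGs, at 28.2% and 27.1% in AOM/DSS and 46.0% and 36.7% with curcumin.

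Neighbouring regions that differed together were few. Runs of adjacent regions at most 1000 bases apart, each at an unadjusted p under 0.05 with at least 10 points in one direction and no overlap, numbered 48. Of these, 35 with 73 regions were higher with curcumin and 13 with 27 regions lower, and the longest held 3 regions. The Tnf and Tmem2 pairs are among the 8 leading higher runs. Another, on chromosome 2, began at chr2:122125679-122125767 with 44.2% and 8.70% in AOM/DSS and 69.0% and 54.1% with curcumin, and went on at chr2:122125884-122126070 with 54.7% and 27.5% against 59.3% and 68.9%. The AOM/DSS replicates were far apart in both. The longest lower run, on chromosome 8, covered 3 CpG-rich regions. They went from 79.3% and 66.3% to 51.2% and 51.6% at chr8:87308031-87308244, from 33.1% and 25% to 24.4% and 11.9% at chr8:87308379-87308809 with 40 CpGs, and from 48.4% and 34.1% to 18.7% and 28.7% at chr8:87308842-87309278. A lower pair on chromosome 11 stood at 67.8% and 75.0% in AOM/DSS, 39.1% and 40% with curcumin and 48.6% and 8.33% in control in its first region, chr11:115672562-115672603.

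Single regions with at least 50 calls in each sample were ranked by their difference, 10 per direction. Those higher with curcumin differed by 29.3 to 38.3 points and those lower by -24.5 to -36.8 points. Ranking on this difference favours low AOM/DSS values among the higher regions and high ones among the lower regions, so a mean of AOM/DSS below control in 9 of the 10 higher regions, and above it in 9 of the 10 lower ones, follows in part from the choice. The exception among the higher regions was chr12:110697955-110698075 with 14 CpGs. It stood at 49.4% and 48.3% in AOM/DSS, 77.4% and 78.9% with curcumin and 40.4% and 46.8% in control, so curcumin stood above both other groups. On the lower side, chr1:181162509-181162708 stood at 61.9% and 77.0% in AOM/DSS, 35.7% and 52.0% with curcumin and 72.9% and 80.3% in control, below both. The largest lower difference, at chr9:46023395-46023406, rests on 3 CpGs with 63.4% and 64.5% in AOM/DSS and 25.9% and 28.4% with curcumin, while the controls spanned the whole range at 65.9% and 14.5%. The adjusted p of these 20 regions ran from 0.0579 to 0.928 in edgeR.

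**Figure D5:**
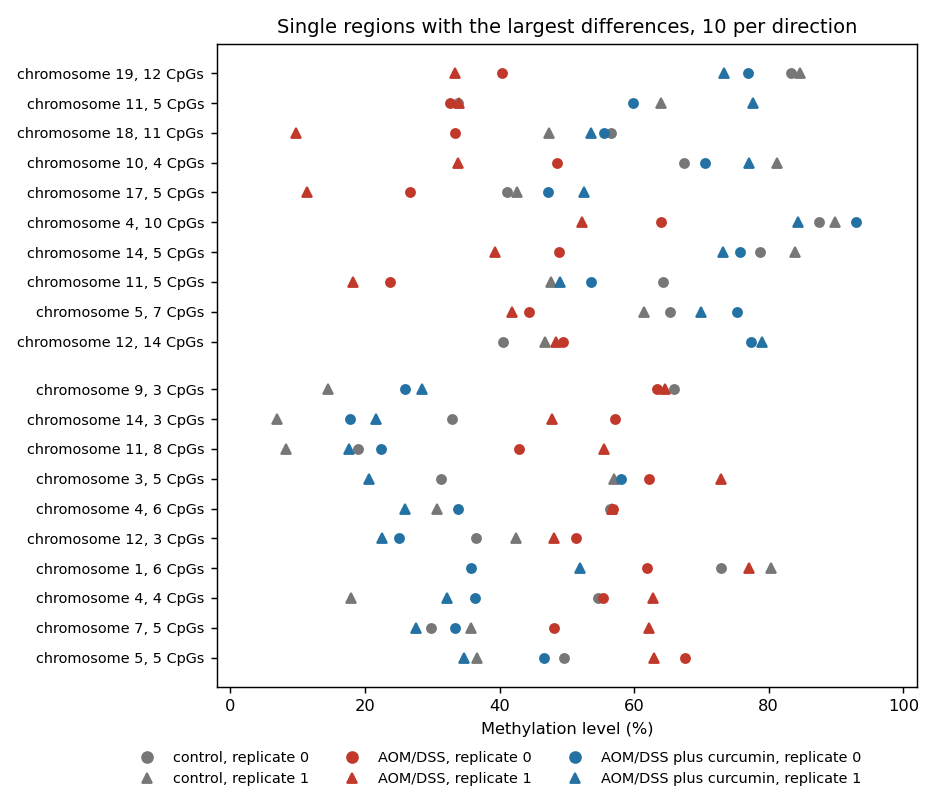
Methylation level (horizontal axis, %) of all 6 samples in the 10 regions with the largest higher difference with curcumin (upper block) and the 10 with the largest lower difference (lower block), each line named by its chromosome and number of CpGs. The 2 AOM/DSS samples stand to the left of the 2 curcumin samples in the upper block and to the right in the lower block, which the ranking fixes. The control mean is nearer to the curcumin mean than to the AOM/DSS mean in 8 of 10 lines of the upper block and 7 of 10 of the lower block. The regions were chosen by the difference between these 2 groups, so these counts follow in part from the choice and are no test.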

How the data were processed

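Per the labels, target DNA was captured with Agilent's SureSelectXT Mouse Methyl-Seq kit and bisulfite sequenced. The submitters' processing notes name build mm9, R 3.4.0, ChIPseeker 1.10.3 and Bismark 0.15.0, without their roles; the sources used here do not say how duplicate reads were treated. In the deposited files each region has counts of all calls and of methylated calls, summed over 3 or more CpGs, and none is under 20 calls. Positions are as in the files and could be shifted by 1 base, since the counting origin is not stated.

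Levels were averaged per sample over regions with values in all 6 samples. edgeR 4.0.16 (R 4.3.3) tested methylated against unmethylated counts with the quasi-likelihood test, a coefficient per sample for coverage and per group for methylation, with all 6 samples in the fit and Benjamini-Hochberg adjustment over 179922 regions. Regions were called at an adjusted p under 0.05 with at least 10 points. limma 3.58.1 on log2 ratios of the counts (0.5 added to each) and a quasi-binomial model were alternatives. The fits were tested on simulated data. Python 3.11.15 with pandas 2.3.3 did the averages. No interval was drawn from calls, because calls on the same read depend on each other.

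The rule named the 8 runs with most regions and the 10 single regions with the largest difference per direction, the regions of known loci that met the unadjusted threshold with 10 points and no overlap, and the regions nearest start sites. Not all are printed, and the Cdx2 region, the second Grb10 region, the Hnf4a region from 163373064 and the region before the leading one of Tmem2 were added after their values were seen. The members and lists were chosen with earlier results of these data known. No mm9 annotation was used: the 77 loci, with 2000 bases on each side of genes, were written from general knowledge of gene positions, in part recalled from a later build and shifted from memory, so they are approximate and exons and introns were not assigned. In 11 of 45 genes with a RefSeq promoter, a region at the start matched it in CpG number and in the distance from first to last CpG, Tnf, Ptprc, Ltb, Il6, Klf4 and Epcam among them. In 36 of 41 genes a region within 1000 bases of the start was under 10% in control. Some members of the lists are not reported here, and the lists' values were computed without them. Loci outside the lists were not analysed here.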

Additional observations from a re-analysis of the deposited data

How the results depend on the processing

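The 84 regions named from runs, the ranking and loci past the unadjusted threshold all kept their direction in up to 12 alternative fits. Their choice required groups without overlap, which keeps the sign when 1 sample is left out, so this count was fixed in advance. In any of these fits, 1 of the 84 passed after adjustment. It is the Tmem2 region from 21892566, whose adjusted p ran from 0.00596 (with a replicate block) to 1. The 41 start-site regions were not chosen by overlap, so the counts cannot be compared. Of them, 20 kept their direction and 21 changed sign or reached 0 difference in at least 1 fit. Among these were the start of Tnf, which ran from -1.49 to 0.0151 points without 1 sample (the latter without curcumin replicate 1), and that of Tmem2, from -1.10 (without AOM/DSS replicate 1) to 4.28 points. The region before the leading one of Tmem2 (1.71 points) ran from -3.13 (without curcumin replicate 0) to 6.56 points, with -0.729 without AOM/DSS replicate 0. The number of calls, 0 in the reported fit, was 1 in a fit of the 4 compared samples alone, 1 with a replicate block and 2 with the quasi-binomial model, and 0 to 1 when 1 sample was left out (1 without either control replicate). The deviations of same-numbered samples correlated at 0.00754 between AOM/DSS and curcumin. With control they correlated at 0.0548 for AOM/DSS and 0.0121 for curcumin. These values cannot show whether the numbers pair the samples, and the reported fit used no pairing.

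Regions at an unadjusted p under 0.05 and 10 points numbered 2324 higher and 1271 lower. They were 4598 and 4841 with no minimum difference, which turns the balance, 472 and 234 with 20 points, 1373 and 726 where each sample needed 50 calls, and 507 and 295 where it needed 100. Leaving out 1 sample gave 1944 to 2722 higher and 1195 to 2258 lower, the last without AOM/DSS replicate 0. Runs of neighbouring regions, 35 higher and 13 lower, were 22 and 6 with at least 50 calls, 5 and 1 with at least 100 calls, 14 and 2 with limma and 62 and 21 with the quasi-binomial model. Leaving out 1 sample gave 15 (without curcumin replicate 0) to 44 higher and 6 (without curcumin replicate 1) to 30 lower runs (without AOM/DSS replicate 0). A higher minimum leaves fewer regions to test; the cause of the other changes was not tested.

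Among region types, 12 of 328 values changed sign, in types whose difference was small. Shores gave -0.0727 points with at least 50 calls, -0.124 with at least 100, -0.0775 with calls pooled over regions, -0.0688 within 1000 bases and from -0.0782 to 0.108 without 1 sample. Sparse low-methylated regions gave -0.190 to 0.289 without 1 sample, with -0.0988 without curcumin replicate 0. Regions with 30 or more CpGs gave 0.0892 with pooled calls and the densest of 4 classes -0.0768 with at least 100 calls. The 40 regions at 70 to 90% with 30 or more CpGs gave -0.451 with pooled calls and -0.277 to 0.988 without 1 sample. Averaged over all regions, 0.482 points became 0.186 where each sample needed 100 calls and 0.347 to 0.618 without 1 sample.

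Mean differences over lists were 1.31 points for inflammation with at least 100 calls (2.68 reported), -0.242 and -1.13 for the methylation enzymes with at least 50 and 100 calls and -0.0386 without AOM/DSS replicate 0 (0.643), 0.614 for genes silenced in colorectal cancer with at least 100 calls (1.29), 7.63 for leukocytes with at least 50 calls (5.11) and 0.34 for stroma with at least 100 calls (1.78). The runs and lists under these settings, and types set by level together with CpG number or with position (shores, isolated and boundary regions), were chosen after seeing the data. Regions with few CpGs rest on the fewest calls, and 2 samples a group limit every test.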
